A study of Mus musculus with 12 samples.

Results

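The 7 genes Cdkn1a, Ccng1, Gtse1, Psrc1, Inka2, Btg2 and Plk2 are targets of p53 that were grouped under cell cycle arrest, although the proteins differ in how directly they act on the cycle. They were taken by gene symbol from the count tables, which hold 26264 symbols, and all 7 were among the 17002 genes with enough counts to be fitted. The members were proposed with their response to adriamycin (ADR) already known, so the values at Day 5 after ADR against baseline describe the choice and carry no test here. The comparisons of BALB/cByJcl (ByJcl) with BALB/cAjcl (Ajcl) mice were tested. RNA-seq was performed on isolated glomeruli of male mice of these substrains, which were 8 weeks old and came from one breeder. The 4 groups were untreated Ajcl mice, untreated ByJcl mice, and Ajcl and ByJcl mice taken on Day 5 after ADR, with 3 mice in each group. ADR is the anthracycline doxorubicin, and 10 mg/kg of it was injected once into the retro-orbital vein. Glomeruli were caught with magnetic beads perfused through the heart, so each library mixes podocytes, endothelium and mesangium with the tubule that came along.

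The transcription factor p53 is kept low in resting cells by the ubiquitin ligase Mdm2. Doxorubicin traps topoisomerase II on DNA and causes breaks, and the kinases Atm, Atr and Chek2 then relieve p53 of Mdm2, so that it can bind response elements near its target genes. Some targets start apoptosis or repair, and others, such as the p21 protein made from Cdkn1a, hold cells before DNA synthesis or before mitosis. Podocytes are cells that have left the cycle for good and express the p21 relative p57 from Cdkn1c, so a checkpoint response in them meets cells that are not dividing.

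Total counts ranged from 42198416 to 54687045 per library. Levels are given as CPM, counts scaled to the size of the library with TMM factors, and as CPM per kb of exon where genes are compared with each other. The model used 11 libraries, without replicate 1 of the Ajcl Day 5 group. The study set that library aside for its lower glomerular purity. Its levels are given beside the fitted ones, and the Ajcl Day 5 group rests on 2 libraries in each fitted value. Baseline and Day 5 counts were deposited as separate tables, and an effect of ADR and a difference in how the tables were made cannot be told apart. All libraries carry the same batch label. P-values measure the spread between these mice. Each SE is the size of the log2FC divided by the square root of the F statistic of edgeR's quasi-likelihood test. It is therefore no separate estimate. For Day 5 against baseline it describes members chosen for that difference and is not to be read as a test. In tissue RNA, fewer cells of a type and less RNA per cell cannot be told apart.

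Promoter sequences from RefSeq (GRCm38.p6) were searched on both strands, over 250 bases before and 50 bases after each annotated start. The 7 members had 11 such windows, and 10 of them matched a GENCODE transcript of GRCm39 just downstream of the start. The window without a match was the only Btg2 window. The p53 consensus element of 10 bases occurred in at least 1 window of Cdkn1a, Ccng1, Gtse1 and Inka2, that is 4 of 7 members, and in 9.55% of all 27025 genes with a window. A pair of these elements back to back was sought as 20 bases with at most 2 mismatches, none of them at the fixed C and G of each element. Such a pair occurred in Cdkn1a, Ccng1 and Gtse1 and in 0.392% of all genes. Each of those pairs contains one of the single elements counted before, and its definition was chosen after the sequences had been seen. In Cdkn1a the pair lies 51 to 32 bases before the more upstream of its RefSeq starts, within chr17:29090888-29090978 on the plus strand. The other Cdkn1a start lies 2790 bases downstream, and its window held no p53 element. In Ccng1 the pair lies 195 to 176 bases before the start, within chr11:40755422-40755521 on the minus strand. In Gtse1 it runs across the second start, at chr15:85859945-85859964 on the plus strand, 239 bases from the first. These are the sequences by which p53 is thought to read such genes, and the capitals mark the pair, which differs from the consensus at 1 position in each:
Cdkn1a: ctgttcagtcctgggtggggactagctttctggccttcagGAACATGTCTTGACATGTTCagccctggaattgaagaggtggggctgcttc
Ccng1: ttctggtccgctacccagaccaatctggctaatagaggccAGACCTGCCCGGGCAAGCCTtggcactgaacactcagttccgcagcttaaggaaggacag
Gtse1: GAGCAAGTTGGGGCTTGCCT

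Psrc1, Btg2 and Plk2 held no p53 element in these windows, but Btg2 and Plk2 shared the element TGACGTCA, which is known as the cAMP response element and is bound by CREB and ATF proteins. It was added to the search after the sequences had been seen, and 2.03% of all genes had it. It is 166 to 159 bases before the RefSeq start in Btg2, the start that had no GENCODE match, within chr1:134079274-134079361 on the minus strand. It is 62 to 55 bases before the start in Plk2, within chr13:110394942-110395029 on the plus strand. These 2 genes also had the smallest ADR differences among the members, but Psrc1, which held no p53 element either, had the largest. Its log2FC was 4.18 in Ajcl and 6.29 in ByJcl, and a link of any element with the response was not tested. In the stretches below the capitals mark TGACGTCA:
Btg2: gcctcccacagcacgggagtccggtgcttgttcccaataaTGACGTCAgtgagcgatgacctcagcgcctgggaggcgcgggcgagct
Plk2: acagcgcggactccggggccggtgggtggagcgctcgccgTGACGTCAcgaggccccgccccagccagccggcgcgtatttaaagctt

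The other motifs set the members less apart from genes in general. The CCAAT box (CCAAT) was in windows of 5 of 7 members, all but Cdkn1a and Plk2, against 41.1% of all genes. The CHR (TTTGAA or TTCGAA), an element of genes that peak in mitosis, was in Psrc1 alone of the 7, against 21.7%, and the CArG box of serum response genes was in none, against 1.81%. A match gives letters in a window and no binding, and response elements farther away were not searched.

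Cdkn1a encodes p21, the inhibitor of cyclin-dependent kinases through which p53 blocks the step from G1 to S phase. It lies at chr17:29309936-29319701 (GRCm39, plus strand). In Ajcl glomeruli it stood at 21.6, 30.2 and 30.7 CPM at baseline and at 281 and 546 CPM on Day 5, with 295 CPM in the library left out. In ByJcl glomeruli it stood at 22.5, 20.3 and 23.2 CPM at baseline and at 599, 946 and 591 CPM on Day 5. All Day 5 libraries were far above all baseline libraries, and all 3 ByJcl Day 5 libraries were above all Ajcl ones. Day 5 stood 15.3-fold above baseline in Ajcl (log2FC 3.94, SE 0.30) and 33.0-fold in ByJcl (log2FC 5.04, SE 0.31). With 1 library left out the log2FC ran from 3.33 to 4.34 in Ajcl and from 4.79 to 5.19 in ByJcl. On the level scale the order of group means was ByJcl Day 5, Ajcl Day 5, Ajcl baseline and ByJcl baseline, and the last 2 overlapped. The antisense transcript Dino shares 504 exon bases with Cdkn1a and was not analysed here, and the strand setting of the counting is not given in the sources used here.

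Ccng1 encodes cyclin G1, which brings the phosphatase PP2A to Mdm2 and so takes part in the feedback on p53. It lies at chr11:40639377-40646148 (minus strand). Its Ajcl levels were 153, 123 and 131 CPM at baseline and 410 and 447 CPM on Day 5, with 516 CPM in the library left out. Its ByJcl levels were 118, 109 and 120 CPM at baseline and 440, 545 and 473 CPM on Day 5. Its levels kept within a narrow range in each group. The difference from baseline was 3.20-fold in Ajcl (log2FC 1.68, SE 0.13) and 4.29-fold in ByJcl (log2FC 2.10, SE 0.12). Its 3 ByJcl baseline libraries lay below the 3 Ajcl ones, while the Day 5 groups overlapped. The opposite strand gene Nudcd2 shares 114 exon bases with it and had between 594 and 1248 counts per library, where Ccng1 had at least 5046.

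Gtse1 encodes a microtubule-bound protein of G2 and S phase that binds p53 and delays entry into mitosis. It lies at chr15:85743605-85760775 (plus strand). In Ajcl it stood at 0.655, 1.23 and 0.916 CPM at baseline, from 28, 58 and 43 counts, and at 5.61 and 9.49 CPM on Day 5, with 5.87 CPM in the library left out. In ByJcl it stood at 0.511, 0.647 and 0.868 CPM at baseline, from 24, 30 and 47 counts, and at 11.3, 14.1 and 8.40 CPM on Day 5. Baseline and Day 5 did not overlap, whereas the substrains overlapped at both times. Day 5 levels were 8.19-fold those of baseline in Ajcl (log2FC 3.03, SE 0.36) and 16.9-fold in ByJcl (log2FC 4.08, SE 0.35).

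Psrc1 encodes a spindle protein that helps depolymerize microtubules in mitosis. It lies at chr3:108288765-108295547 (plus strand). In Ajcl it stood at 0.702, 0.679 and 0.938 CPM at baseline, from 30, 32 and 44 counts, and at 9.60 and 18.0 CPM on Day 5, with 9.89 CPM in the library left out. In ByJcl it stood at 0.170, 0.431 and 0.333 CPM at baseline, from 8, 20 and 18 counts, and at 23.0, 29.5 and 19.8 CPM on Day 5. ByJcl was thus below every Ajcl library at baseline and above every Ajcl library on Day 5. The difference from baseline was 18.2-fold in Ajcl (log2FC 4.18, SE 0.35) and 78.3-fold in ByJcl (log2FC 6.29, SE 0.37), the widest span of the 7 members in both substrains. The ByJcl fold rests on baseline levels of few counts.

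Inka2 encodes an inhibitor of the kinase Pak4, which acts on the actin cytoskeleton. It lies at chr3:105611915-105628158 (plus strand). Its Ajcl levels were 4.19, 5.09 and 4.52 CPM at baseline and 46.6 and 64.9 CPM on Day 5, with 39.6 CPM in the library left out. Its ByJcl levels were 5.09, 4.29 and 6.21 CPM at baseline and 65.1, 68.5 and 54.0 CPM on Day 5. The substrains overlapped at both times. From baseline to Day 5 the level was 12.3-fold higher in Ajcl (log2FC 3.62, SE 0.21) and 12.2-fold in ByJcl (log2FC 3.61, SE 0.20), so the fitted values in the substrains were nearly equal.

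Btg2 encodes an antiproliferative adaptor that recruits the CCR4-NOT deadenylase to messenger RNA, and it is also induced early by growth factors and stress. It lies at chr1:134002908-134015033 (minus strand). In Ajcl it stood at 262, 303 and 311 CPM at baseline and at 434 and 632 CPM on Day 5, with 357 CPM in the library left out. In ByJcl it stood at 279, 374 and 525 CPM at baseline and at 548, 972 and 677 CPM on Day 5. Within each substrain the Day 5 libraries lay above the baseline ones, but the highest ByJcl baseline library exceeded 1 fitted Ajcl Day 5 library and the library left out. The difference from baseline was 1.86-fold in Ajcl (log2FC 0.89, SE 0.28) and 1.90-fold in ByJcl (log2FC 0.93, SE 0.25). With 1 library left out the log2FC ran from 0.55 to 1.15 in Ajcl and from 0.67 to 1.19 in ByJcl. The antisense gene Gm31974, which was not analysed here, shares 898 exon bases with it.

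Plk2 encodes a polo-like kinase of centriole duplication that is induced within hours of serum, synaptic activity or DNA damage. It lies at chr13:110531015-110537379 (plus strand). The Ajcl libraries had 85.2, 119 and 104 CPM at baseline and 92.1 and 134 CPM on Day 5, with 93.0 CPM in the library left out. The ByJcl libraries had 101, 162 and 139 CPM at baseline and 169, 283 and 239 CPM on Day 5. It was the 1 member whose Ajcl Day 5 and baseline libraries overlapped. The fitted difference was 1.12-fold in Ajcl (log2FC 0.16, SE 0.25) and 1.75-fold in ByJcl (log2FC 0.81, SE 0.23). The Ajcl value was 0.06 over 12 libraries and turned to -0.19 without Ajcl Day 5 replicate 3.

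**Figure D1:**
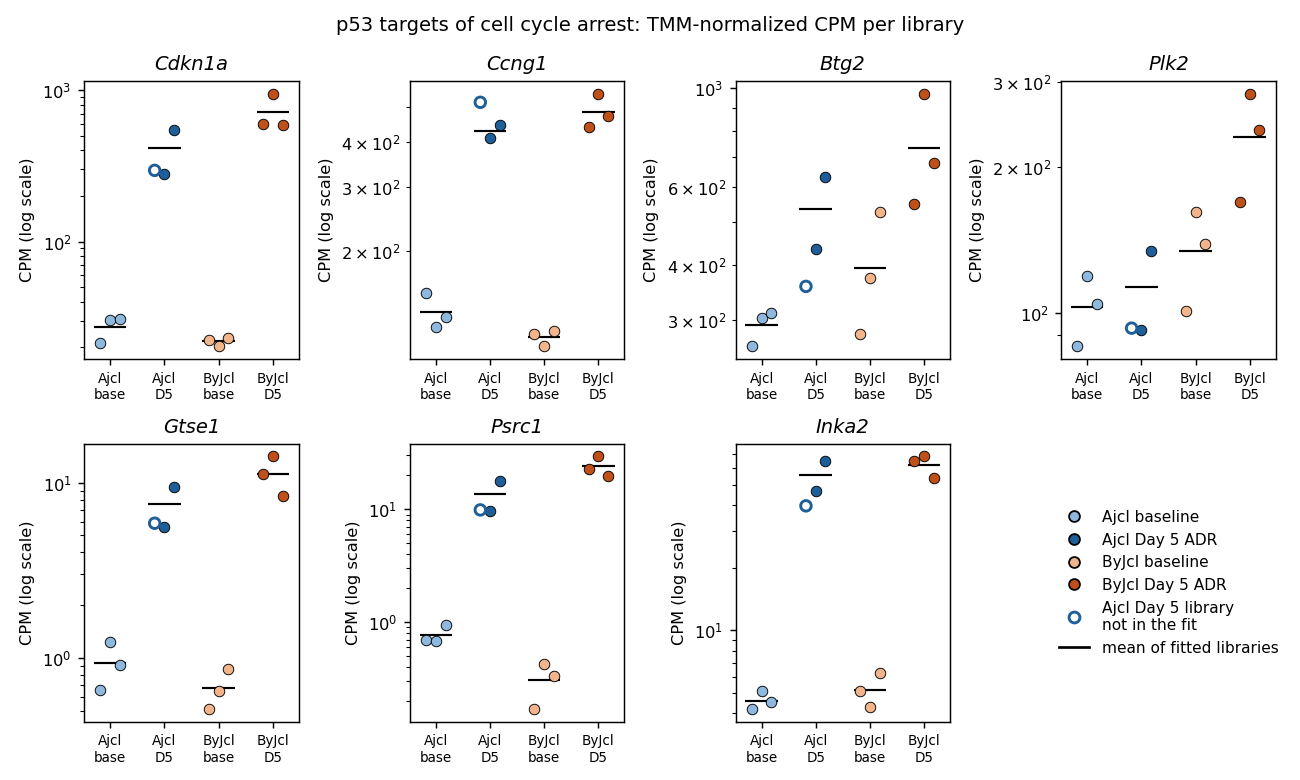
Level of each member in each library, as TMM-normalized CPM on a log axis, for Ajcl and ByJcl at baseline and on Day 5 (D5) after ADR. Points are libraries, bars are means of the fitted libraries, and the open circle is the Ajcl Day 5 library left out of the fit. Cdkn1a lies between 20.3 and 30.7 CPM at baseline and between 281 and 946 CPM on Day 5, whereas the Ajcl libraries of Plk2 overlap.

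Levels per kb of exon set the members in order within each group. In Ajcl glomeruli at baseline, Btg2 was highest at 46.6 ± 4.23 CPM per kb (SD, n = 3). Ccng1 followed at 30.9 ± 3.50 and Plk2 at 20.1 ± 3.32 CPM per kb. Cdkn1a stood at 4.55 ± 0.851 CPM per kb, above Inka2 at 0.948 ± 0.0941. Gtse1 at 0.275 ± 0.0849 and Psrc1 at 0.201 ± 0.0374 CPM per kb were lowest and did not differ beyond their spread. In ByJcl glomeruli at baseline, Btg2 stood at 62.7 ± 19.9 CPM per kb, and Ccng1 at 26.2 ± 1.33 and Plk2 at 26.2 ± 6.00 did not differ beyond their spread (SD, n = 3). Cdkn1a stood at 3.64 ± 0.244, Inka2 at 1.07 ± 0.199, Gtse1 at 0.199 ± 0.0532 and Psrc1 at 0.0811 ± 0.0343 CPM per kb, with Psrc1 below Gtse1 by more than their spread. In Ajcl glomeruli on Day 5, Ccng1 was first at 97.4 ± 6.05 CPM per kb (SD, n = 2), with Btg2 at 85.1 ± 22.4 and Cdkn1a at 68.4 ± 31.0 within their spread of it. Plk2 followed at 22.1 ± 5.82, Inka2 at 11.5 ± 2.67, Psrc1 at 3.60 ± 1.55 and Gtse1 at 2.23 ± 0.808 CPM per kb. In ByJcl glomeruli on Day 5, Cdkn1a at 118 ± 33.5, Btg2 at 117 ± 34.7 and Ccng1 at 111 ± 12.2 CPM per kb (SD, n = 3) lay together within their spread. Plk2 was next at 45.0 ± 11.3 CPM per kb, followed by Inka2 at 12.9 ± 1.57, Psrc1 at 6.28 ± 1.28 and Gtse1 at 3.32 ± 0.845. Cdkn1a thus stood below Btg2, Ccng1 and Plk2 at baseline and within the spread of Btg2 and Ccng1 on Day 5 in both substrains, and Gtse1 and Psrc1 were the lowest of the 7 in all 4 groups.

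Over the 7 members the median log2FC, Day 5 against baseline, was 3.03 in Ajcl and 3.61 in ByJcl, where the median of all 17002 genes was -0.01 and 0.01. The Day 5 libraries lay above all baseline libraries for 6 of 7 members in Ajcl, where 13.3% of all genes did so. With the library left out counted as well, it was again 6 of 7, and the share of all genes was 6.73%. In ByJcl all 7 members did so, where 15.9% of all genes did. These counts repeat what the members were chosen for. Cdkn1a, Gtse1, Psrc1 and Inka2 had log2FC values from 3.03 to 6.29, and Ccng1, Btg2 and Plk2 from 0.16 to 2.10. The Ajcl and the ByJcl differences share no library.

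**Figure D2:**
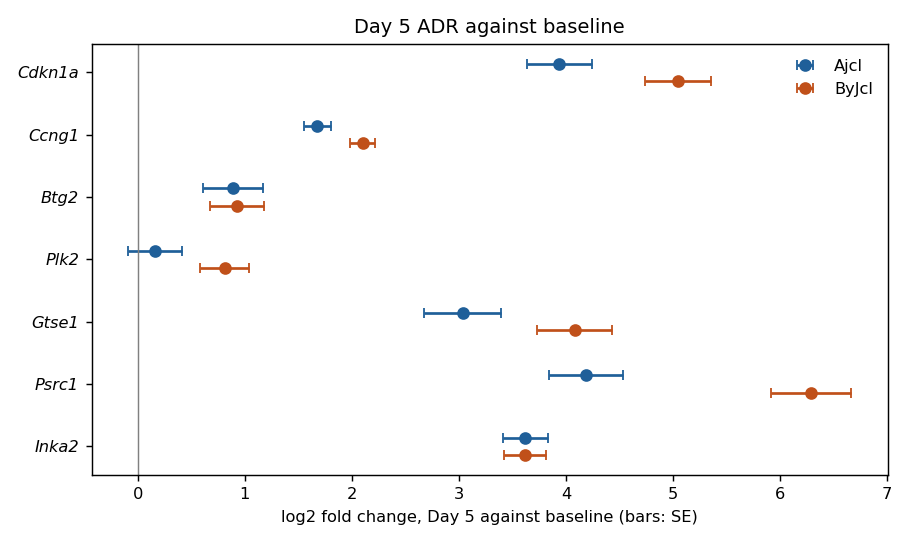
Difference of Day 5 from baseline for each member on the log2 scale, in Ajcl and in ByJcl, from the fit over 11 libraries. Points are log2FC values and bars are SE values derived from the F statistic of the fit. Psrc1 has the largest value in both substrains (4.18 and 6.29) and Plk2 the smallest (0.16 and 0.81).

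Within the Ajcl Day 5 group the 2 fitted libraries differed. Replicate 3 had 1.94 times the Cdkn1a level of replicate 2, 1.88 times its Psrc1 and 1.69 times its Gtse1. Ccng1 stood at 1.09 times and the other members at between 1.39 and 1.46 times. Replicate 3 also had lower podocyte markers, with a summed level of 8 podocyte markers of 10086 CPM against 15023 CPM in replicate 2. In ByJcl, Day 5 replicate 2 had the highest level among the 12 libraries for each of the 7 members, and also the lowest podocyte sum, 7030 CPM, where the other Day 5 libraries had 10299 and 8083 CPM. The other libraries differed by member. The Ajcl library left out had a lower podocyte sum than both fitted ones, 9240 CPM, with the highest Ccng1 of the 3, the lowest Inka2 and Btg2, and Cdkn1a at 295 CPM. ByJcl Day 5 replicate 1 had a higher podocyte sum than replicate 3, with lower Ccng1, Btg2 and Plk2, higher Gtse1, Psrc1 and Inka2, and nearly equal Cdkn1a. Whether podocyte content had a part in these levels was not tested.

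To examine whether the substrains differed before ADR, ByJcl was compared with Ajcl at baseline. None of the 7 members passed the threshold in edgeR's quasi-likelihood test, where 0.159% of all genes did. DESeq2, which called 0.594% of all genes, called none of them either, and 1 member, Psrc1, had an unadjusted p below 0.05, as did 1418 of 17002 genes. Psrc1 was lower in ByJcl, at 0.311 ± 0.132 CPM against 0.773 ± 0.143 CPM in Ajcl (SD, n = 3). Its log2FC was -1.28 (SE 0.37), with a Benjamini-Hochberg adjusted p of 0.503 in edgeR's quasi-likelihood test. The ByJcl libraries lay below all Ajcl libraries for Psrc1 and Ccng1, where 6.30% of all genes did so, and above them for no member, where 8.22% did. For Ccng1 the log2FC was -0.21 (SE 0.12), and its adjusted p in edgeR was 0.626. The other 5 members had log2FC values between -0.45 for Gtse1 and 0.45 for Btg2, with adjusted p from 0.630 to 0.739. Leaving out 1 library moved these values, with Gtse1 between -0.68 and -0.18, Btg2 between 0.18 and 0.63, Inka2 between 0.05 and 0.33, Plk2 between 0.25 and 0.55 and Cdkn1a between -0.48 and -0.21. Of the markers, all 8 of podocytes (median log2FC 0.22), all 7 of immune cells (0.61, with 3 below 0.05 unadjusted) and all 5 of mesangium (0.18) had higher fitted levels in ByJcl at baseline. All 6 tubule markers were lower (-0.93, with 1 below 0.05 unadjusted). The endothelial and smooth muscle medians were 0.14 and -0.13. No marker was called at baseline by edgeR or DESeq2, and their part in the members' values was not tested.

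On Day 5 all 7 members had higher fitted levels in ByJcl than in Ajcl, although Inka2 turned to -0.047 on the log2 scale without Ajcl Day 5 replicate 2. Again none passed the threshold in edgeR's quasi-likelihood test, where 0.165% of all genes did. In the same comparison all 8 podocyte markers had lower fitted levels in ByJcl (median log2FC -0.66), as did all 6 tubule markers (median -1.11). None of these 14 was called by edgeR or DESeq2, and 5 podocyte markers and no tubule marker had an unadjusted p below 0.05. Of 7 immune markers 6 were higher in ByJcl (median 1.18), with 4 below 0.05 unadjusted and 1 called by DESeq2. All 5 mesangial markers (median 0.20), all 4 smooth muscle markers (median 0.38) and all 12 immediate early genes (median 0.40) were higher as well. Each of these lists had 1 gene called by DESeq2, and edgeR called Tagln of smooth muscle. Of the immediate early genes 3 were below 0.05 unadjusted. For endothelial markers 3 of 7 were higher (median -0.28). Of the G2-M genes of dividing cells 21 of 23 were higher (median 0.61, 4 below 0.05 unadjusted). Of the G1 to S genes 12 of 15 were (median 0.27, 0 below 0.05), and neither list had a call by edgeR or DESeq2. The part of these lists in the members' differences was not tested. Of the members, Plk2 came nearest to the threshold in edgeR, with 230 ± 57.7 CPM in ByJcl (SD, n = 3) and 113 ± 29.8 CPM in Ajcl (SD, n = 2). Its log2FC was 1.05 (SE 0.26), with an adjusted p of 0.143 by edgeR's quasi-likelihood test. DESeq2 called Plk2 (log2FC 1.06, adjusted p = 0.00492) and no other member, and it called 3.15% of all genes. With the library left out included, the log2FC of Plk2 was 1.14 with an adjusted p of 0.0531 in edgeR. At baseline the log2FC of Plk2 between the substrains was 0.40 (SE 0.23), with an adjusted p of 0.630 in edgeR.

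Cdkn1a on Day 5 was 1.75-fold higher in ByJcl (log2FC 0.80, SE 0.29), with an adjusted p of 0.278 by edgeR's quasi-likelihood test. That value depended on the Ajcl Day 5 library it was set against. It was 1.41 (adjusted p = 0.0579) without Ajcl Day 5 replicate 3 and 0.39 (adjusted p = 0.988) without replicate 2. For Psrc1 the log2FC was 0.82 (SE 0.32) and for Gtse1 0.60 (SE 0.34), with adjusted p of 0.302 and 0.461 in edgeR. These too depended on the Ajcl Day 5 libraries, and Psrc1 stood at 1.39 without replicate 3 and 0.43 without replicate 2, and Gtse1 at 1.07 and 0.26. Btg2, Ccng1 and Inka2 had log2FC values of 0.48, 0.21 and 0.19, with adjusted p from 0.479 to 0.687. In the same order, they were 0.82, 0.31 and 0.49 without Ajcl Day 5 replicate 3, and 0.22, 0.12 and -0.047 without replicate 2. Without ByJcl Day 5 replicate 2, Btg2, Ccng1 and Inka2 stood at 0.22, 0.12 and 0.12, and Inka2 at 0.30 without ByJcl Day 5 replicate 3. The ByJcl libraries lay above all Ajcl libraries for Cdkn1a, Psrc1 and Plk2, with or without the library left out. The share of all genes was 15.1% over 11 libraries and 9.03% over 12. They lay below all Ajcl libraries for no member, where 17.2% of all genes did. An unadjusted p below 0.05 was found for 3 of 7 members, the same Cdkn1a, Psrc1 and Plk2, and for 2374 of 17002 genes. Over all 12 libraries it was found for 5 of 7, with Btg2 and Gtse1 added, and for 3048 of 16612 genes.

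**Figure D3:**
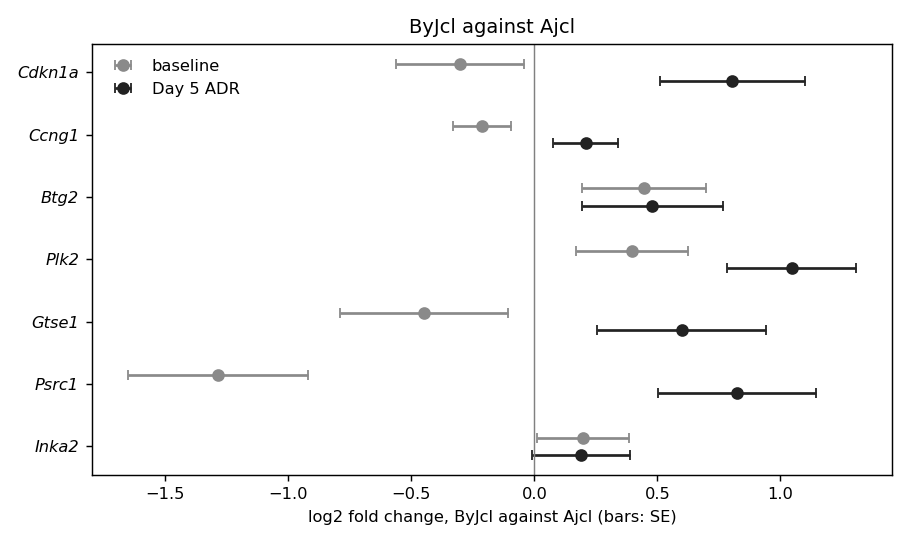
Difference of ByJcl from Ajcl for each member on the log2 scale, at baseline and on Day 5, from the fit over 11 libraries. Points are log2FC values and bars are SE values derived from the F statistic of the fit. Psrc1 moves from -1.28 at baseline to 0.82 on Day 5, while Inka2 has 0.20 and 0.19 and Btg2 0.45 and 0.48. With 1 library left out the Inka2 values range from 0.05 to 0.33 and from -0.05 to 0.49, and those of Btg2 from 0.18 to 0.63 and from 0.22 to 0.82.

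The difference between the substrains in their ADR response is the interaction term, which draws on the contrasts the members were chosen from. No member was called by edgeR's quasi-likelihood test, and no gene of the 17002 was, with 1363 of them and 3 members, Psrc1, Cdkn1a and Ccng1, below 0.05 unadjusted. Psrc1 had the largest term, 2.11 on the log2 scale (SE 0.49) with an adjusted p of 0.620 in edgeR, from a lower baseline and a higher Day 5 level in ByJcl. All 8 podocyte markers had a negative term (median -0.87), with 7 below 0.05 unadjusted, and all 4 smooth muscle markers a positive one (median 0.72), with 2 below 0.05. The medians of the endothelial, mesangial, immune and tubule markers were -0.24, -0.02, 0.25 and -0.11, and that of the immediate early genes was 0.23. For the G2-M genes 19 of 23 terms were positive (median 0.78, 2 below 0.05 unadjusted). For the G1 to S genes 12 of 15 were (median 0.46, 1 below 0.05). No gene of these lists was called in the interaction by edgeR or DESeq2, and the part of these lists in the members' terms was not tested. DESeq2 called Psrc1 (2.14, adjusted p = 0.0265) and no other member, with 0.129% of all genes called. The term was 1.11 (SE 0.39) for Cdkn1a, 1.05 (SE 0.48) for Gtse1, 0.65 (SE 0.34) for Plk2 and 0.42 (SE 0.17) for Ccng1. For Btg2 and Inka2 it was 0.03 (SE 0.38) and -0.01 (SE 0.27). Without Ajcl Day 5 replicate 3 the term was 1.73 for Cdkn1a and 1.00 for Plk2, and without replicate 2 it was 0.71 and 0.40. For Btg2 and Inka2 its sign changed when single libraries were dropped. Adjusted p for these 6 members ranged from 0.620 to 1.000 by edgeR's quasi-likelihood test.

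Across the 12 libraries the log2 levels of the members ran together to different degrees. The 12 points share the baseline and Day 5 split, the tissue preparation and the scaling, so the values of Pearson's r describe these libraries only. Over the 21 pairs r ranged from 0.382 for Ccng1 and Plk2 to 0.993 for Cdkn1a and Gtse1. Cdkn1a, Ccng1, Gtse1, Psrc1 and Inka2 had r of at least 0.966 with each other. With these 5, Btg2 had r from 0.687 to 0.786 and Plk2 from 0.382 to 0.523, and Btg2 and Plk2 had r of 0.839 with each other.

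By the same measure, the 3 genes outside the members with the most similar levels were named for each member. For Cdkn1a they were Zmat3, Aen and Phlda3 (r from 0.988 to 0.990), for Gtse1 Aen, Zmat3 and Mybl1 (0.982 to 0.992), and for Psrc1 Aen, Cox6b2 and Zmat3 (0.974 to 0.983). For Ccng1 they were Cox6b2, Tmem178 and Phlda3 (0.975 to 0.985), and for Inka2 Phlda3, Mybl1 and Vwde (0.982 to 0.983). For Btg2 they were Kdm1a, Fosl2 and Arhgap27 (0.962 to 0.975), and for Plk2 Cbarp, Atf3 and Actn1 (0.947 to 0.950).

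The wider p53 programme was described with 33 other targets, such as those of apoptosis, repair and feedback. These were listed with earlier results of these data known, so their calls against baseline are a description and no independent test. In Ajcl 7 of 33 rose and none fell, where 0.312% of all genes were called, 0.306% as higher, and the list's median log2FC was 0.48. Eda2r, a member of the TNF receptor family, rose from 1.48 ± 0.203 (SD, n = 3) to 27.4 ± 10.9 CPM (SD, n = 2), with a log2FC of 4.23 (adjusted p = 0.000809, edgeR's quasi-likelihood test). Phlda3, which restrains Akt, rose by a log2FC of 2.52 (adjusted p = 0.00100), the nuclease gene Aen by 1.73 (adjusted p = 0.00634) and Bbc3, the apoptosis gene Puma, by 1.73 (adjusted p = 0.0123, all edgeR). The other 3 were Zmat3 (1.12), Trp53inp1 (1.19) and the phosphatase gene Ptprv (3.43). The count fell from 7 to 2 without Ajcl Day 5 replicate 3 or Ajcl baseline replicate 1, and to 3 without Ajcl baseline replicate 2 or 3.

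In ByJcl 21 of 33 rose and none fell, where 10.6% of all genes were called, 5.75% as higher and 4.83% as lower, and the list's median log2FC was 0.92. The count was 14 without ByJcl baseline replicate 2. All 7 genes called in Ajcl were among the 21. Phlda3 rose by a log2FC of 3.15 (adjusted p = 9.68e-05), Eda2r by 4.89 (adjusted p = 0.00013), Aen by 2.43 (adjusted p = 0.000263) and Zmat3, an RNA-binding p53 target, by 1.55 (adjusted p = 0.000778), all by edgeR's quasi-likelihood test. None of the 33 was called in a comparison of the substrains or in the interaction by edgeR, and 7 of 33 on Day 5, 1 at baseline and 3 in the interaction had an unadjusted p below 0.05. DESeq2 called 2 of them on Day 5 and none at baseline or in the interaction. The list was put together with earlier results of these data known.

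Among p53 itself and 6 genes of its upstream control, none was called in Ajcl by edgeR, by DESeq2 or at an unadjusted p below 0.05. In ByJcl Trp53 rose by a log2FC of 0.69 (adjusted p = 0.0311), from 42.8 ± 1.98 to 67.6 ± 15.5 CPM (SD, n = 3). Atm fell by 0.51 (adjusted p = 0.0277) and Trp53bp1, which marks DNA breaks, by 0.52 (adjusted p = 0.0476, all edgeR). The log2FC of Trp53 in Ajcl was 0.15 (SE 0.20). None of the 3 ByJcl calls was left without ByJcl Day 5 replicate 2 or without any 1 of the ByJcl baseline libraries.

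**Figure D4:**
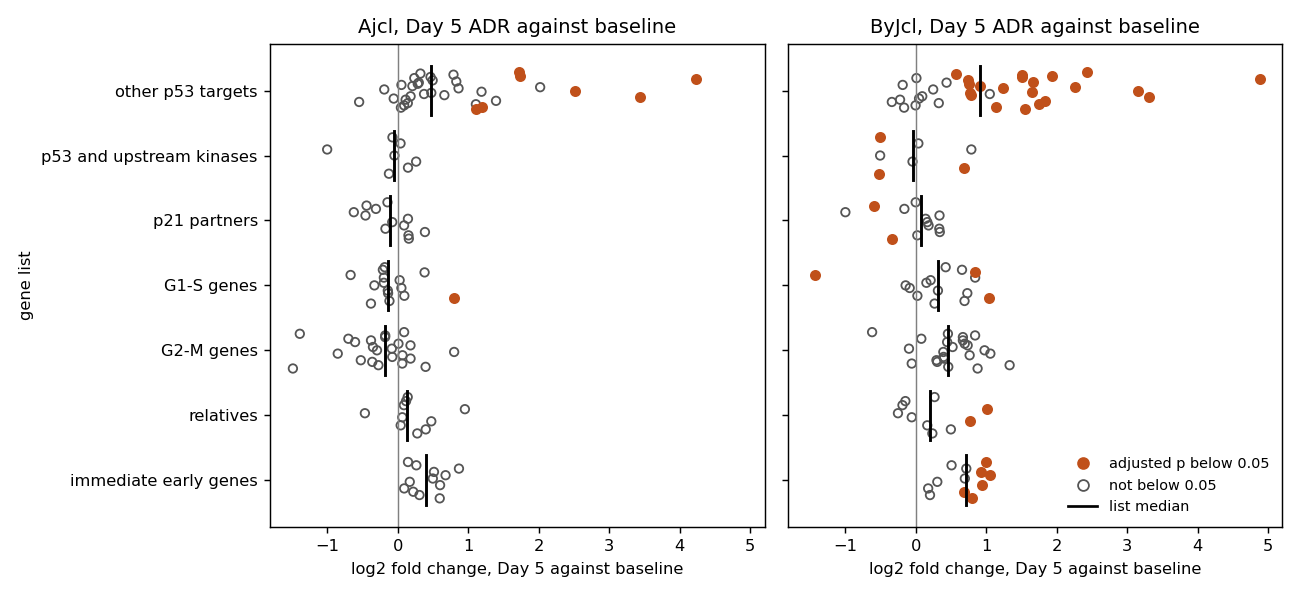
Difference of Day 5 from baseline on the log2 scale for the genes of 7 lists around the members, in Ajcl and in ByJcl. Each point is a gene, filled where its adjusted p in edgeR's quasi-likelihood test was below 0.05, and the bar is the list's median. Among the other p53 targets 7 are filled in Ajcl and 21 in ByJcl, and among the G2-M genes none in either.

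The kinases, cyclins and pocket proteins that p21 acts on or through were mostly not called. Of 12 such genes none was called in Ajcl by edgeR or DESeq2, with 3 below 0.05 unadjusted. In ByJcl Ccnd2, which encodes cyclin D2, fell by 0.60 (adjusted p = 0.0161) and Rbl2, which encodes the pocket protein p130, fell by 0.33 (adjusted p = 0.0276, edgeR). That was 2 of 12, where 4.83% of all genes were called as lower and 10.6% in either direction. Both calls were lost over all 12 libraries, without ByJcl Day 5 replicate 2 and without ByJcl baseline replicate 1 or 2. Of 15 genes of the G1 to S step, Rrm1, a subunit of ribonucleotide reductase, rose by a log2FC of 0.80 in Ajcl (adjusted p = 0.0414) and by 1.04 in ByJcl (adjusted p = 0.00146, edgeR). In ByJcl the replication licensing gene Cdt1 rose by 0.84 (adjusted p = 0.0476) and E2f1, a transcription factor of S phase entry, fell by 1.42 (adjusted p = 0.0310, edgeR). The ByJcl calls of the G1 to S list were 3 of 15, where 10.6% of all genes were called. The count was 1 without ByJcl Day 5 replicate 2 or 3 and without any 1 of the ByJcl baseline libraries, with adjusted p of up to 0.144 for Cdt1 and 0.104 for E2f1 over the alternatives. The Ajcl call of Rrm1 was lost in 9 of the 11 fits that left out 1 library.

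The G2-M genes, which mark dividing cells, were low throughout. Their summed level was between 39.2 and 44.4 CPM in Ajcl at baseline and between 36.2 and 40.9 CPM in ByJcl at baseline. On Day 5 it was 26 and 47.4 CPM in the fitted Ajcl libraries, 35.8 CPM in the library left out, and 71.2, 60.6 and 27.5 CPM in ByJcl. Of 23 tested genes none was called by edgeR in either substrain, with 1 in Ajcl and 2 in ByJcl below 0.05 unadjusted and none called by DESeq2, which called 1.77% of all genes in Ajcl and 15.8% in ByJcl. The list's median log2FC was -0.18 in Ajcl, with 8 of 23 values positive, and 0.46 in ByJcl, with 20 of 23 positive. In ByJcl 1 gene was called without ByJcl Day 5 replicate 3. Gtse1 and Psrc1, whose proteins act on the mitotic spindle, stood 8.19-fold to 78.3-fold above baseline in the same libraries. The lack of calls among genes this low does not show that the list was unchanged. A link of Gtse1 and Psrc1 with dividing cells was not tested.

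Relatives of the members were set beside them. None of the 10 tested was called in Ajcl by edgeR, with 3 below 0.05 unadjusted and 1 called by DESeq2, and 2 rose in ByJcl. Cdkn1c, which encodes p57, was the highest per kb of exon at 504 ± 26.4 CPM per kb in Ajcl at baseline (SD, n = 3), followed by the Btg2 relatives Tob1 at 52.4 ± 2.43 and Btg1 at 23.2 ± 3.14 CPM per kb. Cdkn1c rose in ByJcl from 1333 ± 236 to 2628 ± 402 CPM (SD, n = 3), a log2FC of 1.01 (adjusted p = 0.00670, edgeR's quasi-likelihood test). In Ajcl it stood at 1087 ± 56.9 CPM at baseline (SD, n = 3) and 2073 ± 369 CPM on Day 5 (SD, n = 2), a log2FC of 0.95 (adjusted p = 0.0913, edgeR). Plk3, a relative of Plk2 that is also counted among the 33 p53 targets, rose in ByJcl by 0.77 (adjusted p = 0.0431, edgeR), and this call was lost in 9 of the 11 fits that left out 1 library.

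Btg2 and Plk2 are also known as early response genes in other cells, and 12 immediate early genes were set beside them. In Ajcl none was called by edgeR or DESeq2, with 5 below 0.05 unadjusted and a median log2FC of 0.40. In ByJcl 6 of 12 rose, where 5.75% of all genes were called as higher, with a median of 0.71, among them Fos (log2FC 0.93, adjusted p = 0.00979), Junb (0.94, adjusted p = 0.0150), Zfp36 (0.81, adjusted p = 0.0165) and Fosb (1.06, adjusted p = 0.0262, edgeR). The count was 1 without ByJcl Day 5 replicate 2 or ByJcl baseline replicate 2 and 2 without ByJcl baseline replicate 1. Their summed level was 3974 to 5963 CPM in ByJcl at baseline and 6879 to 7973 CPM on Day 5, and Day 5 replicate 2 was highest for this sum, for Btg2 and for Plk2. In Ajcl it was 4077 to 5011 CPM at baseline and 4886 and 7076 CPM on Day 5, with 5258 CPM in the library left out. Whether the early gene response had a part in the levels of Btg2 and Plk2 was not tested.

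Transcripts that mark cell types moved with ADR as well. All 8 podocyte markers fell in ByJcl, with a median log2FC of -1.20, among them Synpo by 1.54 (adjusted p = 0.00234) and Wt1 by 1.09 (adjusted p = 0.00756, edgeR). In Ajcl none of the 8 was called by edgeR, 2 were below 0.05 unadjusted, 1 was called by DESeq2, and the median was -0.40. No marker was at 0 in any library, and the podocyte sum ran from 7030 to 20645 CPM over the 12 libraries. Of 7 endothelial markers Ehd3 and Flt1 fell in ByJcl, and the list's median log2FC was -0.32. Of 5 mesangial markers Serpine2 rose, with 2 of 5 values positive and a median of -0.06, and of 7 immune markers Cd68 rose, with 3 of 7 positive and a median of -0.05. Of 4 smooth muscle markers Tagln rose, with a median of 0.52, and of 6 tubule markers none was called by edgeR or DESeq2 or was below 0.05 unadjusted. Tagln was also higher in ByJcl than in Ajcl on Day 5 (log2FC 1.15, adjusted p = 0.0436, edgeR). The summed tubule markers were highest in the library left out, at 3736 CPM, followed by an Ajcl baseline library at 3554 CPM, and the ByJcl libraries ranged from 323 to 1514 CPM. The part of these shifts in the members' levels was not tested.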

How the data were processed

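Per the labels, poly(A)-selected strand-specific libraries of isolated glomeruli were sequenced as paired reads, and the submitters' processing notes name FastQC, Trimmomatic, STAR, featureCounts and the build GRCm39. The authors deposited whole-number counts per gene symbol, neither normalized nor pooled. Annotation and strand setting of the counting are not given in the sources used here. Between 77.1% and 82.9% of counts from 1 to 49 were even in each library, so both reads of a pair may have been counted, and a fit on counts divided accordingly was an alternative.

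The deposited counts were modelled without change by edgeR 4.0.16 (R 4.3.3). After filterByExpr and TMM scaling, 17002 genes were fitted by the quasi-likelihood model with 1 coefficient for each of 4 groups over 11 libraries (7 residual degrees of freedom, common dispersion 0.0521), and Benjamini-Hochberg adjustment ran over all of them, with calls below 0.05. The study's own tool, DESeq2 (here 1.42.0), was an alternative, as were RLE scaling, other filters on low counts, all 12 libraries, a replicate block and leaving out each library. Exon lengths and coordinates came from GENCODE vM39 on GRCm39 and promoters from RefSeq on GRCm38.p6. The members and the gene lists were chosen with earlier results of these data known. Of each list the 4 called genes with the smallest adjusted p per ADR contrast are named, with every gene called between substrains, and of the relatives also the 3 highest per length. Some marker genes are not reported here. The fit was tested on simulated counts.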

Additional observations from a re-analysis of the deposited data

Results flagged for a closer look

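The Ajcl Day 5 library that was left out of the fit carries the same pattern as the fitted ones for 6 of the 7 members. Its level was above all 3 Ajcl baseline libraries for Cdkn1a (295 CPM), Ccng1 (516 CPM), Gtse1 (5.87 CPM), Psrc1 (9.89 CPM), Inka2 (39.6 CPM) and Btg2 (357 CPM). Of all genes tested, 36.5% were above the Ajcl baseline libraries in this library, and the members were chosen for being higher on Day 5. Plk2, at 93.0 CPM, lay among the baseline libraries. The library had the highest Ccng1 of the 3 Ajcl Day 5 libraries and the lowest Inka2 and Btg2, while Cdkn1a, Gtse1, Psrc1 and Plk2 were close to those of replicate 2. Its summed podocyte markers were the lowest of the Ajcl libraries, at 9240 CPM, and its tubule markers the highest of all libraries.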

How the results depend on the processing

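Of 162 values for the members' medians and for the counts of calls among the members, the other p53 targets and the G2-M genes, 154 stayed within 1.5 times the reported count or within the spread, and 8 moved. By DESeq2, 1 member was called on Day 5 and 1 in the interaction, where edgeR called 0, and 13 of the other p53 targets were called in Ajcl against 7. Leaving out a library gave 2 to 9 of these in Ajcl, and 0 to 1 of the G2-M genes in ByJcl. The shorter lists moved more in ByJcl: over the alternatives the calls ran from 1 to 8 for immediate early genes (6 reported), 0 to 3 for p53 and its upstream genes (3), 0 to 3 for p21 partners (2), 1 to 3 for G1-S genes (3) and 1 to 3 for relatives (2), and in Ajcl from 0 to 1 for G1-S genes (1) and relatives (0). Of 378 values for members between the substrains, 360 kept direction and side of the threshold, 2 were newly called by DESeq2 and 16, all of Inka2 or Btg2, changed sign. The Inka2 interaction was -0.007 in the model reported, 0.017 by DESeq2, 0.017 with RLE scaling, 0.17 over 12 libraries and 0.025 with the replicate block, and leaving out a library gave -0.23 to 0.31. The Btg2 interaction ran from -0.22 to 0.39, the Inka2 Day 5 difference from -0.047 to 0.49 and the Plk2 response in Ajcl from -0.19 to 0.42 when a library was left out, and the last was negative without Ajcl Day 5 replicate 3. The cause was not tested. Of 792 values for called list genes, 131 were no longer called and none changed sign. Over all genes, DESeq2 called 301, 2694, 101, 535 and 22 genes in the Ajcl and ByJcl responses, at baseline, on Day 5 and in the interaction, where edgeR called 53, 1800, 27, 28 and 0. The Ajcl response had 99 calls with no filter and 26 with the replicate block, the ByJcl response 1197 over 12 libraries, and Day 5 had 72 over 12 libraries and 56 with no filter. Leaving out a library gave 11 to 180 calls for the Ajcl response, 680 to 2056 for ByJcl, 12 to 29 at baseline, 9 to 218 on Day 5 and 0 to 5 for the interaction, so the shares of all genes given as background moved as well.

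Whether the replicate numbers pair the mice was not settled. Over 15 same-numbered pairs the deviations from the group means had r from -0.24 to 0.37, and 4 exceeded 0.1. Differently numbered pairs were not compared, and groups of 2 or 3 libraries constrain such deviations. The replicate block called no member between the substrains. Depth limited Gtse1 and Psrc1 at baseline, with 8 to 58 counts per library. The other members had at least 179 counts, and there the 2 to 3 mice per group limit precision.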
